A study of Arabidopsis thaliana with 10 samples.

Results

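UGT88A1 (AT3G16520) is a gene of chromosome 3 of Arabidopsis thaliana that encodes a UDP-dependent glycosyltransferase. The probe set annotated to this single gene was taken as the 1 member, among 13513 probe sets with 1 annotated gene and 22810 probe sets in all. It was chosen from these same data for its small spread between replicates and for its higher signal with dexamethasone at both times. Those values are therefore given as a description, with no test, and the spread behind the choice is given with them.

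RNA of whole seedlings was hybridised to 10 Affymetrix ATH1 arrays, 1 array per sample, in 5 groups of 2. All seedlings, controls included, had the Col-0 background and carried transposon knock-outs labelled Atglk1;Atglk2, and all were raised on hygromycin plates and moved to liquid culture. Treated seedlings received dexamethasone and were sampled at 4 h and 24 h, and the controls received DMSO, the solvent, and were sampled at 0 h, 4 h and 24 h. The series title names the targets of the transcription factor AtGLK1 as the question. Dexamethasone, a synthetic steroid, is commonly used to switch on an inducible transgene in plants, and the titles call these samples induced. The labels name no transgene, no dose and no second line without one, so an effect of the steroid itself and an effect of an induced protein cannot be told apart. The annotation gave GLK1 and GLK2 0 probe sets, so neither gene was checked on the arrays. The 2 samples of a group are not stated to come from separate cultures. The p-values set differences between groups against the spread between such samples, and that spread may be technical.

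Plant UDP-glycosyltransferases move a sugar, most often glucose, from a UDP-sugar to a small molecule such as a flavonoid, a phenolic acid or a hormone. The added sugar makes the molecule more soluble and often marks it for storage in the vacuole. Recombinant UGT88A1 is known to glucosylate the flavonol quercetin in the test tube, and its role in the plant is less well described. GLK proteins are GARP-family transcription factors that promote chloroplast development, mainly by raising transcripts of nuclear photosynthesis genes.

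The arrays had median signals between 33.9 and 35.9, and replicate arrays correlated across probe sets on the log2 scale with r between 0.970 and 0.987. On the second axis of variation (23.4% of the variance), replicate 2 of dexamethasone at 4 h and replicate 1 of the control at 24 h had loadings of 0.64 and 0.61, and the other 8 arrays lay between -0.27 and -0.04. For UGT88A1 and the family genes with the largest differences, the dexamethasone values are given with and without them. Among markers of green tissue, 5 of 13 were measured, and their summed signal lay between 8687.8 and 13165.2 on all arrays. Of 8 root markers 2 were measured, the expansins EXPA7 and EXPA18, with sums between 80.9 and 141.4. No measured marker was listed at 0 on any array. Of the other marker lists, FMA was the 1 measured of 4 epidermis and guard cell genes, PDF1.2 the 1 measured of 8 defence genes, and 0 of 3 vascular genes were measured.

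The signal of UGT88A1, a linear intensity on arrays scaled to a common mean, was 473.1 and 492.7 with dexamethasone at 4 h, against 277.4 and 281.8 in the controls at 4 h. At 24 h it was 477.5 and 386.3 with dexamethasone, against 309.6 and 301.5 in the controls. The controls at 0 h had 326.9 and 332.4. Thus the 4 dexamethasone arrays, from 386.3 to 492.7, all lay above the 6 control arrays, from 277.4 to 332.4, and the lowest of them was 1.16 times the highest control. The probe set stood between percentile 89.3 and percentile 94.0 of its array in every sample, in the upper part of the signal range.

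**Figure D1:**
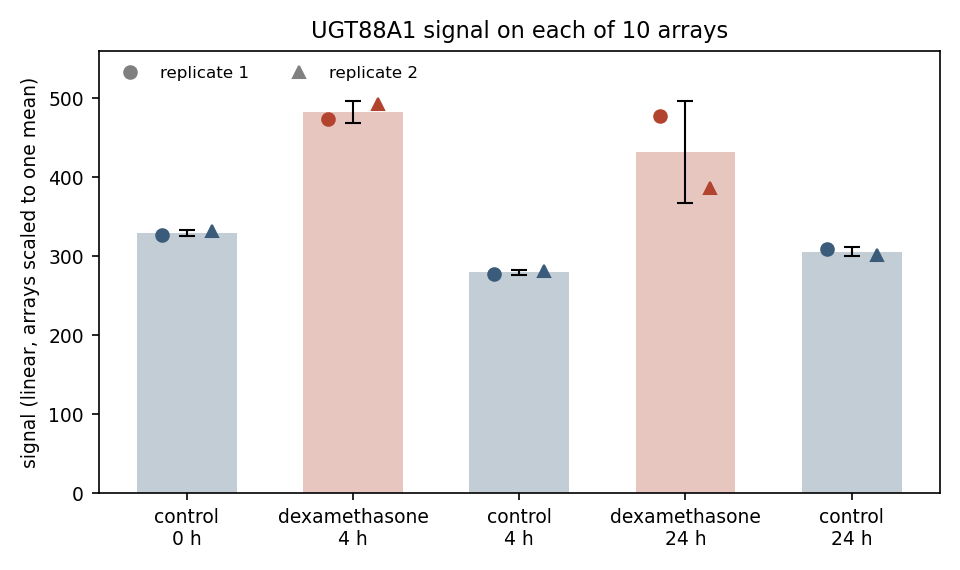
Signal of UGT88A1 (vertical axis, linear scale from 0) on each of the 10 arrays, by group (horizontal axis). Points are arrays, bars are group means and error bars are the SD of 2 arrays; the 4 dexamethasone arrays lie between 386.3 and 492.7 and the 6 controls between 277.4 and 332.4.

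Ordered by mean signal, dexamethasone at 4 h came first with 482.9 ± 13.9, followed by dexamethasone at 24 h with 431.9 ± 64.5 (SD, n = 2 each). The arrays of these groups overlapped, since replicate 1 at 24 h (477.5) lay between both arrays at 4 h. The control at 0 h followed with 329.6 ± 3.93, the control at 24 h with 305.6 ± 5.72 and the control at 4 h with 279.6 ± 3.11 (SD, n = 2 each). No other neighbours in this order overlapped. The narrow spread was a property of 4 of the groups, in which the SD of log2 values was 0.041 or less. With dexamethasone at 24 h it was 0.214, where replicate 1 was 1.24 times replicate 2.

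Over the 5 groups the pooled SD of the log2 values was 0.099, against a median of 0.170 over all 14575 probe sets kept after a filter on low signals. Of those probe sets, 14.4% had a smaller SD. Since strong signals vary less on this scale, it was also set beside the 1309 probe sets whose mean lay within 0.5 log2 units of it, and there 28.9% had a smaller SD. These values belong to the choice of the gene and carry no test.

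At 4 h the mean signal with dexamethasone was 1.73 times that of the control, and the lowest dexamethasone array was 1.68 times the highest control. On the scale of log2(signal + 4.35), where the constant slightly understates changes, the difference was 0.78 (SE 0.12). At 24 h the ratio of means was 1.41, the lowest dexamethasone array was 1.25 times the highest control, and the log2 difference was 0.49 (SE 0.12). Against the 0 h controls, the mean was 1.46 times as high with dexamethasone at 4 h and 1.31 times as high with dexamethasone at 24 h. In RNA of whole seedlings, a higher level per cell and a larger share of the cells that express the gene cannot be told apart.

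Set among all probe sets kept, 16.5% had both dexamethasone arrays above both controls at 4 h, 18% at 24 h and 3.13% at both times. All 4 dexamethasone arrays lay above all 6 controls for 0.405% of them, or 59 probe sets, of which that of UGT88A1 is 1. By the size of the log2 difference UGT88A1 ranked 61 from the top at 4 h and 130 at 24 h among 7898 kept single-gene probe sets, and 12 on the average of both times (0.63, SE 0.08). The rule used these contrasts, so nothing is read from these places. They share no arrays between times, but both fed the choice.

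The summed signal of the 5 green tissue markers also lay higher with dexamethasone at both times, but unlike UGT88A1 it was higher with dexamethasone at 24 h than at 4 h. It lay between 9675.4 and 10239.8 with dexamethasone at 4 h, against 8687.8 to 9468.7 in the controls at 4 h, and between 12528.1 and 13165.2 with dexamethasone at 24 h, against 9482.2 to 10609.4 in the controls at 24 h. In limma 0 of these 5 passed at either time, against 0.00686% of all probe sets. Over all 14575 probe sets kept, 1022 at 4 h and 451 at 24 h had an unadjusted limma p below 0.05. Of the 5 markers, 1 at 4 h and 4 at 24 h did. At 4 h 4 of them were above 0, against 47.8% of all probe sets, and at 24 h 5 were, against 52.5%. The markers are the antenna proteins LHCB4.1 and LHCB4.2, the photosystem I subunit PSAE-1, and the plastid genes rbcL and psbA. Of these, psbA lay below 0 at 4 h (log2 difference -0.21, SE 0.20), and PSAE-1 lay near 0 (0.04, SE 0.10). The part of the 5 markers in the values of UGT88A1 was not tested. Both arrays that stood apart on the second axis gave UGT88A1 signals close to those of their partners. Replicate 2 of dexamethasone at 4 h had 1.04 times replicate 1, and replicate 1 of the control at 24 h had 1.03 times replicate 2. The gene was chosen for a small spread between replicates, so this closeness is part of the choice. Without both, the log2 differences were 0.75 at 4 h and 0.50 at 24 h.

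The difference at 24 h depended more on single arrays than that at 4 h. Leaving out 1 array at a time kept the 4 h value between 0.75 and 0.81. At 24 h it was 0.33 without replicate 1 of dexamethasone and 0.64 without replicate 2. The effect at 24 h minus that at 4 h was -0.29 (SE 0.17), with -0.44 and -0.14 without these same arrays. No test of this difference was made, because both effects were used to choose the gene.

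**Figure D2:**
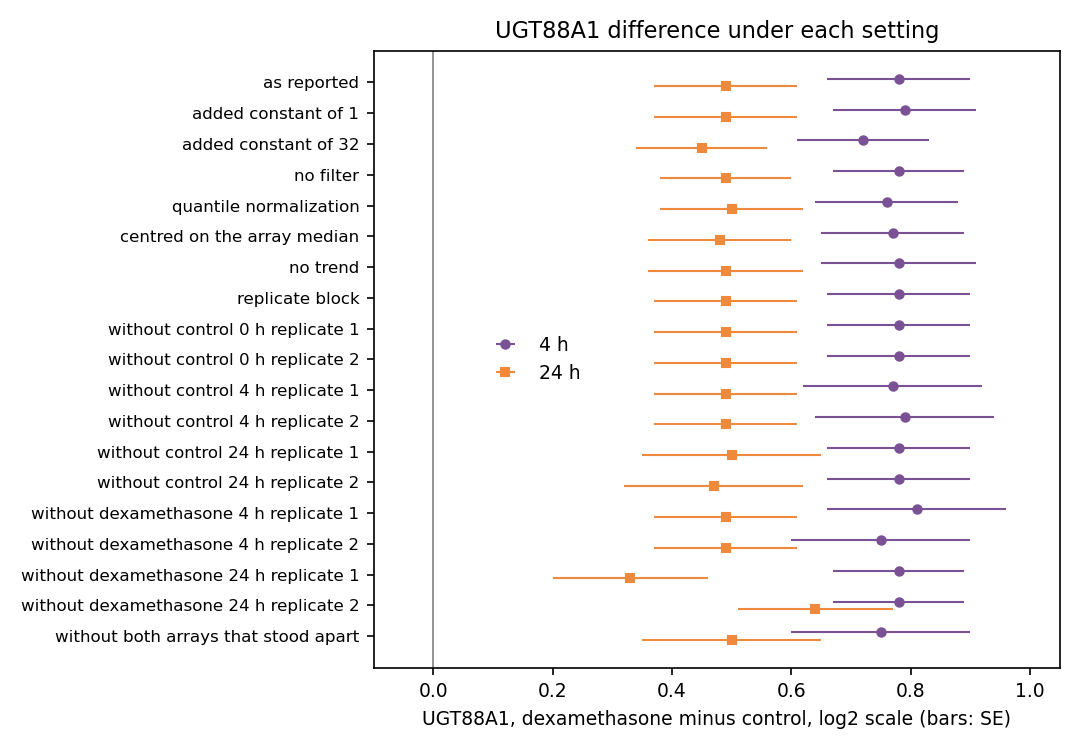
Difference of UGT88A1 between dexamethasone and control (horizontal axis, log2 scale) at 4 h (circles) and at 24 h (squares) under each processing setting (vertical axis), with SE as bars. The 4 h values stay between 0.72 and 0.81, while the 24 h value is 0.33 without replicate 1 of dexamethasone at 24 h and 0.64 without replicate 2.

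A difference that the choice did not use is that between the 4 arrays at 24 h and the 4 arrays at 4 h, over both treatments. Its SE, interval and p-values rest in part on the spread between replicates, which the choice did use. The comparison asks whether UGT88A1 follows the large change of these seedlings between these times. The mean signal was 368.7 at 24 h and 381.2 at 4 h. This joins opposite moves from 4 h to 24 h. The control mean went from 279.6 up to 305.6, and the dexamethasone mean from 482.9 down to 431.9, with overlapping arrays. A small pooled difference therefore does not show a flat course within either treatment. The log2 difference was -0.02 (SE 0.08, 95% interval -0.20 to 0.16), with limma adjusted p = 0.924. An exact permutation of the times within treatment gave p = 0.944 (two-sided), where the smallest p that its 36 arrangements allow is 0.056. In the same comparison 7.7% of the probe sets kept passed at adjusted p below 0.05, 4.25% being higher (620) and 3.45% lower (503) at 24 h. The sign of the small difference turned to 0.06 without replicate 2 of dexamethasone at 24 h, and it did not pass there either (limma adjusted p = 0.814).

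Among the controls, the log2 difference of UGT88A1 was -0.23 (SE 0.12) at 4 h and -0.11 (SE 0.12) at 24 h, each relative to 0 h. Both 4 h controls and both 24 h controls lay below both 0 h controls. The 4 h and 24 h control arrays are also those of the contrasts that chose the gene, so these values are not independent of it and were not tested. All 4 dexamethasone arrays lay above both 0 h controls, of which the higher had 332.4.

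The genes whose pattern over the 10 arrays was most like that of UGT88A1 were found by Pearson's r of the log2 values among 7897 other kept single-gene probe sets. The points share their arrays, and the values that chose UGT88A1 enter this measure, so it is a description. The median r over all of them was -0.02, and 21 exceeded 0.8. The top gene was TIL (AT5G58070), a temperature-induced lipocalin, a small lipid-binding protein, with r = 0.921. Its signal was 473.3 and 541.5 with dexamethasone at 4 h, against 333.4 and 359.1 in the controls at 4 h, and 580.1 and 407.3 with dexamethasone at 24 h, against 417.5 and 386.2 in the controls at 24 h. Like UGT88A1, TIL was higher on replicate 1 than on replicate 2 of dexamethasone at 24 h, but its arrays overlapped between treatments at that time.

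The next were AT2G35260 (r = 0.905), AT1G65230 (0.894), AT2G21960 (0.881), AT3G56830 (0.865), AT3G05640 (0.856), AT1G13190 (0.852) and AT1G17330 (0.840). The gene just below this list had r = 0.836. AT2G35260 had 204.4 and 197.1 with dexamethasone at 4 h, against 147.7 and 134.4 in the controls at 4 h. At 24 h it had 215.8 and 212.1 with dexamethasone, against 161.8 and 160.2 in the controls at 24 h. For it, and for 5 others of the 8, all 4 dexamethasone arrays lay above all 6 controls, against 0.405% of all probe sets. The exceptions were TIL and AT1G17330. Likeness to a gene chosen for high dexamethasone arrays favours such genes, so nothing is read from this count.

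AT3G05640 differed most in size, with log2 differences of 1.23 at 4 h and 1.38 at 24 h, and it differed between replicates too. Its signal was 68.9 and 29.4 with dexamethasone at 4 h and 68.8 and 39.1 with dexamethasone at 24 h, against 15.8 and 18.0 in the controls at 4 h and 16.3 and 18.3 in those at 24 h. Without both arrays that stood apart its r was 0.955, the highest of all. None of the 8 passed over all probe sets at 4 h (limma adjusted p between 0.504 and 0.707) or at 24 h (0.999 each). The list changed with single arrays. Without replicate 1 of dexamethasone at 24 h 2 of the 8 were again among the top 8, and without both arrays that stood apart 3 were.

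**Figure D3:**
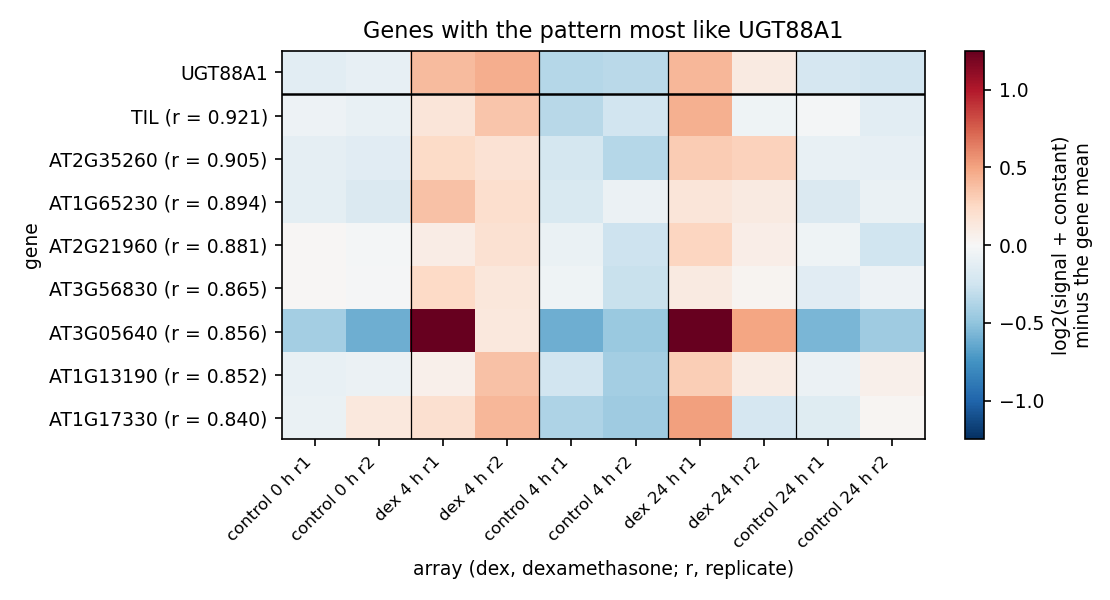
Level of UGT88A1 and of the 8 genes most like it (rows, with Pearson's r over 10 arrays) on each array (columns), as log2(signal + 4.35) minus the mean of the gene. The dexamethasone arrays at 4 h and 24 h are mostly on the high side (red) and the controls mostly on the low side (blue), and AT3G05640 has the widest range.

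Other UDP-glycosyltransferase genes were taken by their symbol or synonyms in the RefSeq gene table. Family members listed there under other names are therefore not counted. Of the 61 genes found in this way, 49 had a single-gene probe set and 26 of these were kept. With dexamethasone 0 of the 26 passed in limma at either time, where 0.00686% of all probe sets passed at each time. Over all 14575 probe sets kept, 1022 at 4 h and 451 at 24 h had an unadjusted limma p below 0.05. Of the 26, 2 and 0 did. At 4 h 16 lay above 0 and 10 below, with a median log2 difference of 0.09 against -0.01 over all probe sets. At 24 h 11 lay above 0 and 15 below, with a median of -0.02 against 0.01. Across the times 7 were above 0 at both, 6 below 0 at both and 13 had opposite signs. At 4 h 0 of the 26 had a larger log2 difference than UGT88A1, and at 24 h 1 did, UGT84A4. UGT88A1 was chosen for these differences and the 26 were not, so nothing is read from its place among them.

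The largest positive log2 differences at 4 h were those of UGT72E1, which glucosylates lignin precursor aldehydes (0.77, SE 0.36), UGT85A2 (0.65, SE 0.25) and UGT76C2, a cytokinin N-glucosyltransferase (0.49, SE 0.21), each with limma adjusted p = 0.707. UGT72E1 had 183.2 and 563.2 with dexamethasone at 4 h, against 178.1 and 197.6 in the controls at 4 h. The high value was that of replicate 2, the array that stood apart, and without it the log2 difference was -0.03. Without replicate 1 it was 1.56 (limma adjusted p = 0.00556), but that fit holds the array that stood apart as the 1 dexamethasone array at 4 h and takes its spread from the other groups, and 80 probe sets passed in it. UGT85A2 showed the same split, with 121.9 and 229.4 with dexamethasone at 4 h, against 111.9 and 98.5 in the controls at 4 h, and its difference was 0.21 without replicate 2. The 2 dexamethasone arrays of UGT88A1 at 4 h were nearly equal, but it was chosen for a small spread between replicates, so nothing is read from this.

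UGT76C2 had 64.8 and 75.3 with dexamethasone at 4 h, against 41.9 and 55.8 in the controls at 4 h, and 31.1 and 40.3 with dexamethasone at 24 h, against 43.4 and 34.6 in the controls at 24 h. Both dexamethasone arrays lay above both controls at 4 h, as for 16.5% of all probe sets, and the groups overlapped at 24 h. The largest negative differences at 4 h were those of UGT84A4, of the group that forms glucose esters of hydroxycinnamates (-0.48, SE 0.25), UGT78D1, a flavonol 3-O-rhamnosyltransferase (-0.33, SE 0.35), and UGT71C1 (-0.28, SE 0.22). Their limma adjusted p lay between 0.722 and 0.851. Without replicate 2 of dexamethasone these differences were -0.47, 0.35 and -0.04, and that of UGT76C2 was 0.39. At 24 h UGT84A4 and UGT71C1 had the largest positive differences instead, 0.52 (SE 0.25) and 0.45 (SE 0.22), followed by UGT72B3 at 0.29 (SE 0.20), all with limma adjusted p = 0.999. When the first control array of 24 h was left out they were 0.27, 0.39 and 0.19.

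UGT84A4 had 33.4 and 27.9 with dexamethasone at 24 h, against 16.2 and 24.6 in the controls at 24 h. At 4 h it had 22.3 and 22.2 with dexamethasone, against 25.8 and 41.2 in the controls at 4 h. The higher treatment was thus dexamethasone at 24 h and the control at 4 h. The largest negative differences at 24 h were those of UGT87A2, known for a part in flowering time (-0.76, SE 0.42), UGT72E1 (-0.40, SE 0.36) and UGT76B1, which glucosylates isoleucic acid and salicylic acid (-0.36, SE 0.39). UGT87A2 had 46.5 and 57.6 with dexamethasone at 24 h, against 159.4 and 50.5 in the controls at 24 h, so 1 control array carried the difference.

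That control array was replicate 1, which stood apart. Without it the difference at 24 h was 0.03 for UGT87A2, -0.20 for UGT72E1 and 0.09 for UGT76B1. UGT87A2 and UGT76B1 were the 2 family genes that exceeded 1.5 times the partner array on both arrays that stood apart. For UGT87A2 these ratios were 2.01 with dexamethasone at 4 h and 3.16 in the control at 24 h, and for UGT76B1 they were 2.78 and 1.95. The ratios of 1.04 and 1.03 of UGT88A1 lay near 1, which belongs to its choice for a small spread between replicates. Both dexamethasone arrays above both controls at 4 h and again at 24 h were found for 1 of the 26, or 3.85%, against 3.13% of all probe sets. The gene was UGT71C4, named here after its values were seen, with 83.6 and 91.6 with dexamethasone at 4 h, against 80.4 and 70.8 in the controls at 4 h, and 98.5 and 101.6 with dexamethasone at 24 h, against 95.1 and 91.0 in the controls at 24 h. Its log2 differences of 0.20 and 0.10 were below those of UGT88A1, which was chosen for them. All 4 dexamethasone arrays lay above all 6 controls for 0 of the 26, against 0.405% of all probe sets.

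**Figure D4:**
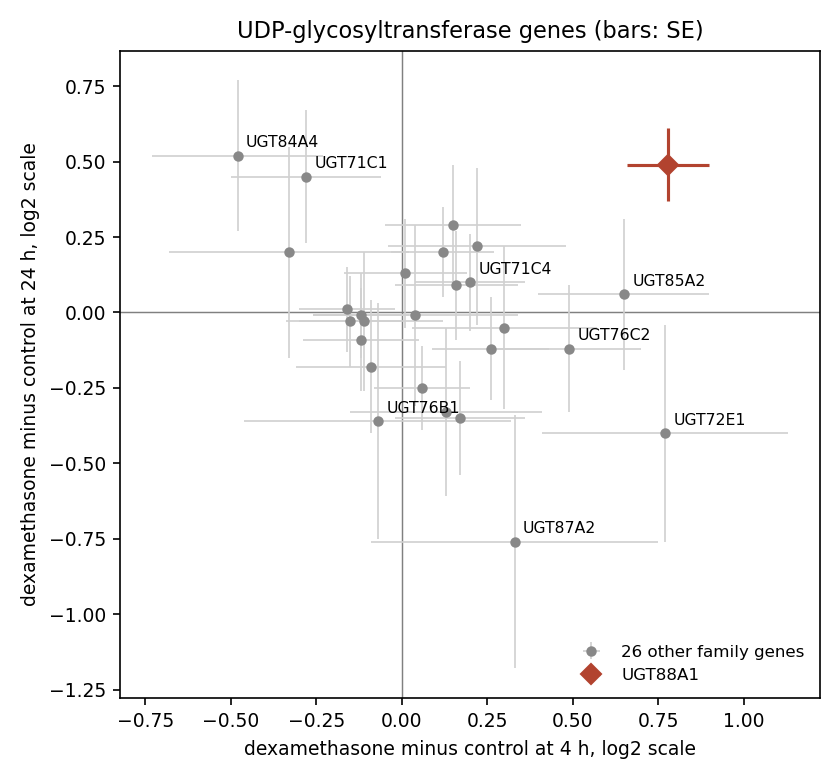
Log2 difference between dexamethasone and control at 4 h (horizontal axis) and at 24 h (vertical axis) for UGT88A1 (diamond) and 26 other UDP-glycosyltransferase genes (circles), with SE as bars. UGT88A1 lies at 0.78 and 0.49, and of the others 7 are above 0 at both times.

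Between 24 h and 4 h over both treatments, where UGT88A1 had -0.02, 2 of the 26 fell and 0 rose, against 3.45% of all probe sets that fell in this comparison. UGT71B1 had 42.4 and 49.2 with dexamethasone at 24 h and 46.0 and 39.5 in the controls at 24 h, against 94.2 and 100.8 with dexamethasone at 4 h and 72.3 and 104.4 in the controls at 4 h. Its log2 difference was -0.99 (SE 0.13, limma adjusted p = 6.12e-04), and it passed under all 18 alternatives. UGT76C2 fell by 0.60 on the log2 scale (SE 0.15, limma adjusted p = 0.0318). This call was lost under 6 of 18 alternatives, with adjusted p of up to 0.138. The single arrays behind this were replicate 2 of either DMSO control (adjusted p = 0.122 without that at 4 h and 0.0944 without that at 24 h) and 2 dexamethasone arrays, the second at 4 h (0.0782) and the first at 24 h (0.138). Without both arrays that stood apart the log2 difference of UGT71B1 was -1.02. That fit leaves dexamethasone at 4 h and the control at 24 h without a replicate pair, so its family calls are not read. In the controls from 0 h to 4 h 0 of the 26 passed in limma, against 2.63% of all probe sets. The unadjusted limma p there was below 0.05 for 3 of the 26 and for 1983 of all 14575 probe sets kept. UGT72E1, with -0.60 there, passed when either dexamethasone array of 4 h was left out (limma adjusted p = 0.041 and 0.042).

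Flavonols such as quercetin are the acceptors that recombinant UGT88A1 is known for. Of 26 flavonoid synthesis genes and regulators 9 had a single-gene probe set and 5 were kept. Among these are UGT78D1 and UGT78D2, both counted above too. AT1G06000 carries no family name in the gene table, so the family counts above leave it out, whatever it encodes. With dexamethasone 0 of the 5 passed in limma at 4 h or at 24 h, against 0.00686% of all probe sets at each time. Over all 14575 probe sets kept, 1022 at 4 h and 451 at 24 h had an unadjusted limma p below 0.05. Of the 5, 0 did at either time. The median log2 difference was -0.27 at 4 h, against -0.01 over all probe sets, and 0.20 at 24 h, against 0.01. The largest single values were -0.41 (SE 0.26) at 4 h for CHIL, a chalcone isomerase-like protein that promotes flavonoid synthesis, and 0.69 (SE 0.49) at 24 h for DFR, dihydroflavonol reductase. DFR had 11.1 and 15.6 with dexamethasone at 24 h, against 8.6 and 4.8 in the controls at 24 h, near the bottom of the signal range.

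All 5 lay lower at 24 h than at 4 h over both treatments, where 52.8% of all probe sets lay higher, and 2 passed, against 3.45% of all probe sets that fell. The median was -0.74, against 0.01 over all. AT1G06000 fell by 1.16 on the log2 scale (SE 0.14, limma adjusted p = 3.43e-04) and CHIL fell by 1.02 (SE 0.18, limma adjusted p = 0.00522), both under all 18 alternatives. CHIL had 40.9 and 54.4 with dexamethasone at 24 h and 29.8 and 54.3 in the controls at 24 h, against 84.7 and 76.2 with dexamethasone at 4 h and 122.7 and 95.6 in the controls at 4 h. In the controls, where 1.1% of all probe sets were higher and 1.52% lower at 4 h than at 0 h, AT1G06000 rose, with 226.6 and 199.1 at 4 h, against 99.6 and 92.9 at 0 h (log2 difference 1.11, limma adjusted p = 0.0114). That call was lost without any 1 of these 4 arrays (adjusted p between 0.0653 and 0.119).

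Beta-glucosidases remove glucose from glucosides, the opposite step. Of 40 BGLU genes 20 had a single-gene probe set and 10 were kept. With dexamethasone 0 passed in limma at either time, against 0.00686% of all probe sets. Over all 14575 probe sets kept, 1022 at 4 h and 451 at 24 h had an unadjusted limma p below 0.05. Of the 10, 1 and 0 did. The largest differences were -0.42 (SE 0.13) at 4 h for BGLU15 and 0.43 (SE 0.20) at 24 h for BGLU46. BGLU15 had 119.1 and 98.1 with dexamethasone at 4 h, against 153.7 and 138.2 in the controls at 4 h. Between 24 h and 4 h BGLU42 (-0.44, limma adjusted p = 0.0393) and BGLU28 (-0.89, limma adjusted p = 0.0443) fell, or 2 of the 10 against 3.45% of all probe sets, and in the controls BGLU44 was higher at 4 h than at 0 h (0.46, limma adjusted p = 0.0459), or 1 of the 10 against 1.1%. These calls were lost under 10, 13 and 10 of 18 alternatives, up to adjusted p of 0.162, 0.188 and 0.242. For BGLU42 the array whose loss raised it most was replicate 1 of the 4 h control, as it was for BGLU28, and for BGLU44 it was replicate 1 of the 0 h control.

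Few genes of the steps before glycosylation could be measured. Of 18 phenylpropanoid genes 1 was kept, HCT, a hydroxycinnamoyltransferase, with log2 differences of 0.30 (SE 0.13, limma adjusted p = 0.707) at 4 h and -0.26 (SE 0.13, limma adjusted p = 0.999) at 24 h. HCT had 379.6 and 432.1 with dexamethasone at 4 h, against 333.5 and 322.0 in the controls at 4 h. Of 28 genes of UDP-sugar supply 1 was kept, USP, a UDP-sugar pyrophosphorylase, with 0.10 (SE 0.19) at 4 h and 0.12 (SE 0.19) at 24 h, which did not pass (limma adjusted p = 0.925 and 0.999).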

How the data were processed

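The authors deposited 1 signal intensity for each probe set and array, not log-transformed. The submitters' processing notes name MAS5 and GCOS; their versions are not stated there. The trimmed mean of every array was 100.0 (2% trimmed at each end), so the arrays had been scaled to a common mean, which hides any change in total messenger RNA. Detection calls were not used here. Precision is limited by having 2 arrays in each group. Probe sets were named through the platform annotation, and 13436 of 13513 single-gene probe sets were matched to the RefSeq gene table of TAIR10.1, used for names and gene order only.

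Signals were taken as log2(signal + 4.35), the constant being percentile 20 of all values of non-control probe sets. A probe set was kept if 2 or more arrays had it above their percentile 40 (14575, of them 7898 with 1 gene). Differences were fitted with limma 3.58.1 in R 4.3.3, 1 mean per group over all 10 arrays (5 residual degrees of freedom), eBayes with a trend and Benjamini-Hochberg adjustment over all probe sets kept, at a threshold of 0.05, two-sided. The procedure was tested on simulated data with known changes. Of dexamethasone changes of 0.5 log2 units it recovered 4% at 4 h and 8% at 24 h. Of changes of 1 log2 unit it recovered 54% and 74%. False calls numbered 11 at 4 h and 6 at 24 h. Differences of such sizes that did not pass are therefore not shown to be absent.

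The gene, the lists and the rule for named genes were chosen with earlier results of these data known. That rule took the 8 genes most like UGT88A1, the genes of the family, pathway and beta-glucosidase lists that passed (marker lists are not part of it), and the family genes with the 3 largest increases and decreases at each time. It also took the 1 largest difference of each other list and the nearest measured gene on each side. A part of the rule based on protein sequences was not used here. Alternatives were other constants, no filter, other scalings, no trend, the replicate number as a block and arrays left out. Figures were made with matplotlib 3.10.9 in Python 3.11.15.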

Additional observations from a re-analysis of the deposited data

How the results depend on the processing

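Of 126 values of UGT88A1 (7 differences under 18 alternatives), 121 moved by less than the pooled SD of 0.099 or, for the tested one, kept their direction and side of the threshold. The 24 h difference with dexamethasone lay between 0.33 and 0.64 and the 24 h minus 4 h effect between -0.44 and -0.14 with single arrays removed in turn, both set by the replicates of dexamethasone at 24 h. The 24 h minus 4 h difference over both treatments lay between -0.10 and 0.06 and did not pass under any alternative (limma adjusted p between 0.665 and 0.983). Same-numbered replicates did not deviate together, since the correlation of replicate differences between groups lay between -0.42 and 0.18 and exceeded 0.1 in 2 of 10 pairs of groups. With the replicate block the time difference was -0.02 (limma adjusted p = 0.922), and the differences with dexamethasone were 0.78 and 0.49; the block lost the calls of BGLU42 (0.0532), BGLU28 (0.0507) and BGLU44 (0.0524) and no other call of the family, flavonoid or beta-glucosidase genes named in the report. Probe sets called with 1 array left out numbered 1 to 80 at 4 h and 1 to 8 at 24 h of dexamethasone, 651 to 1104 between 24 h and 4 h, and 134 to 482 in the controls from 0 h to 4 h (383 with all arrays). That control count was 228 without the trend and 639 without both arrays that stood apart, where 3 passed at 4 h of dexamethasone. Family genes called in fits with arrays left out are not read, since each such fit leaves a group with 1 array. Of the 8 most like genes 2 to 6 stayed in the top 8 with 1 array left out, 4 with no filter and 3 without both arrays. For other changes the cause was not tested. With 2 arrays in a group, small differences of family genes may not be detectable.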

Other observations

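The nearest genes with a kept single-gene probe set on each side of UGT88A1 along chromosome 3 did not pass with dexamethasone. IQD26 (AT3G16490), an IQ-domain protein, with 4 RefSeq genes between, had 17.5 and 10.8 with dexamethasone at 4 h, against 20.5 and 21.1 in the controls at 4 h. At 24 h it had 12.8 and 9.6 with dexamethasone, against 21.5 and 11.7 in the controls at 24 h. Its log2 differences of -0.47 and -0.40 did not pass (limma adjusted p = 0.776 and 0.999), and these signals lie in the low part of the range. AT3G16530, with 1 RefSeq gene between, had 1425.5 and 1135.7 with dexamethasone at 4 h, against 1239.7 and 1566.6 in the controls at 4 h. At 24 h it had 1312.0 and 1356.5 with dexamethasone, against 1914.5 and 1218.9 in the controls at 24 h. The groups overlapped at both times, and its log2 differences were -0.13 and -0.19 (limma adjusted p = 0.899 and 0.999).

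Among the marker genes, 2 passed outside the comparison with dexamethasone, and both are named after their values were seen. LHCB4.2 is 1 of the 5 kept green tissue markers, and PDF1.2 is the 1 kept defence gene. The root markers and FMA did not pass. Over all probe sets kept, 4.25% rose and 3.45% fell from 4 h to 24 h. In the controls 1.52% were lower at 4 h than at 0 h. The antenna gene LHCB4.2 had 2734.8 and 2188.5 with dexamethasone at 24 h and 1655.3 and 1994.1 in the controls at 24 h, against 1633.6 and 1272.9 with dexamethasone at 4 h and 837.0 and 887.9 in the controls at 4 h. It rose between 4 h and 24 h (log2 difference 0.92, SE 0.10, limma adjusted p = 2.68e-04), and in the controls it was lower at 4 h than at 0 h (-0.84, SE 0.15, limma adjusted p = 0.0115). PDF1.2, a plant defensin, fell between 4 h and 24 h (-0.61, SE 0.15, limma adjusted p = 0.0282). Alternative settings were not run for these marker genes. UGT88A1 had -0.02 in the same comparison of times, which pools a rise in the controls and a fall with dexamethasone.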
